A study of Oryza sativa with 12 samples.

Results

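The 100 gene IDs with the most reads in leaves given water were followed through 4 leaf treatments of TU100, an indica hybrid rice. They are 100 IDs starting with BGIOSGA, of 40745 such IDs and 88438 IDs in all, chosen by their mean CPM (reads per 1000000 reads assigned to genes in the same library) over the 3 water libraries. The plants were 1 month old and of 1 cultivar, and the treatments were Water, azoxystrobin, VdAL, and VdAL+ azoxystrobin, called the combination from here on, with 3 libraries each. Azoxystrobin, a fungicide of the strobilurin class, acts on fungi by blocking respiration at mitochondrial complex III. VdAL stands in the labels without an expansion. The doses, the time from treatment to sampling and the link between treatments and the 4 areas named in the growth description were not found in the labels, so an effect of treatment and one of area cannot be told apart. Separate plants for the 3 libraries are not stated, and p-values therefore rest on a spread between libraries that may be technical.

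Leaf messenger RNA is unevenly spread over genes. In green leaves of plants in general, nuclear genes for the small subunit of Rubisco, the chlorophyll a/b-binding proteins of the light-harvesting antennae and other parts of the photosynthetic machinery are among the most highly transcribed. Their transcripts are known to respond to light, sugar supply, energy status and stress. The files pair no ID with a gene name, and 0 of the 100 IDs matched the reference gene table, so none of them is given a function and the leaf label could not be set against marker genes. CPM is not divided by transcript length, so the ranks below are ranks of reads and not of transcript copies, and the 100 IDs are called the most-read IDs. Reads that fit several places in the genome were left out of the counts, so IDs with near-identical copies elsewhere are undercounted by an unknown amount.

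Reads assigned to genes ranged from 6444650 to 10144564 per library, and all 100 IDs had at least 1460 reads in every library and passed the filter on low counts. A pair of libraries is singled out here, each by a different measure. VdAL replicate 1 had 11 of the 100 IDs more than 1.5 times above both other VdAL libraries, against 6.82% of all 21381 tested IDs, and 22.4% of its recorded reads did not align uniquely, against 9.01% to 16.1% in the other 11 libraries. Combination replicate 2 had the highest value of its group for 74 of the 100 IDs, a count for which the share over all tested IDs was not computed. It had 6 of the 100 IDs more than 1.5 times above both other combination libraries, against 4.78% of all tested IDs. The group shares and the median differences of the combination from the single treatments are also given with either library left out, as are several counts.

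The most-read IDs held between 19.0% and 23.5% of the reads assigned to genes in every library. In water their share was 21.8%, 21.2% and 21.2% in the 3 libraries, with a mean of 21.4% ± 0.344 (SD, n = 3). With azoxystrobin it was 19.3%, 20.4% and 20.1%, with a mean of 19.9% ± 0.582. With VdAL it was 21.7%, 19.3% and 19.0%, with a mean of 20.03% ± 1.49, and 19.2% without VdAL replicate 1. In the combination it was 21.6%, 23.5% and 21.5%, with a mean of 22.2% ± 1.10, and 21.56% without combination replicate 2. The 3 azoxystrobin libraries lay below all 3 combination libraries and all 3 water libraries. VdAL replicates 2 and 3 lay beside the lowest azoxystrobin library, and VdAL replicate 1 lay among the combination and water libraries. The 95% Wilson interval of the largest share ran from 23.44% to 23.50% and covers counting error only, and the range over the libraries of each treatment was wider than such an interval. The water shares are the values that chose the IDs, and no test was made on a sum over the IDs.

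**Figure D1:**
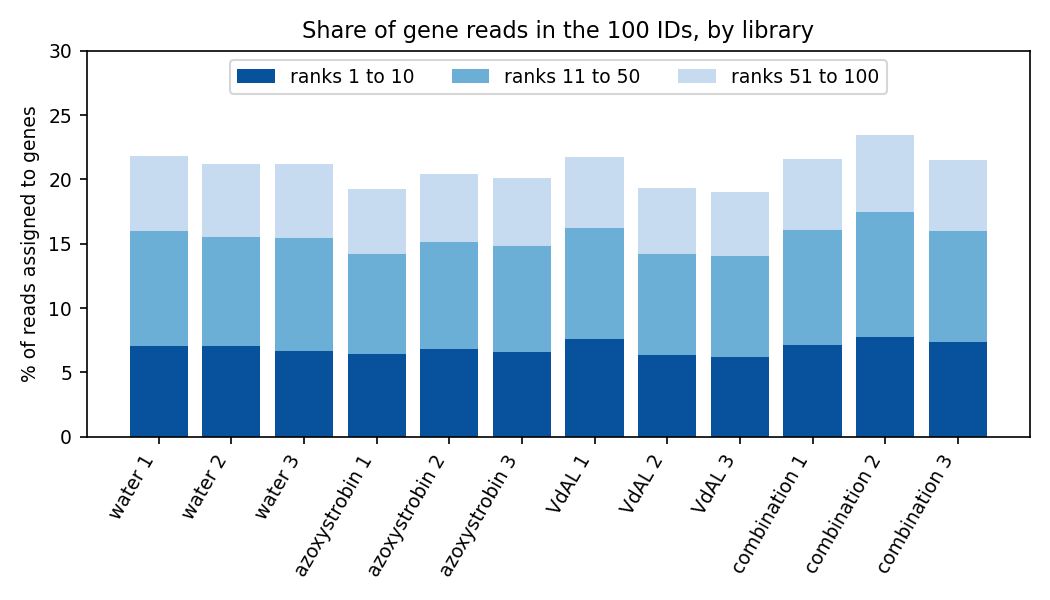
Share of the reads assigned to genes, in percent, that fell on the 100 most-read IDs in each of the 12 libraries, stacked by rank in water. The bars reach 19.0% in VdAL replicate 3 and 23.5% in combination replicate 2, and ranks 1 to 10 hold 6.17% to 7.74%.

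The top of the list was steep. The first ID had 2.11 times the mean CPM of the next in water and 20.9 times that of the 100th. In water 7 IDs were above 5000 CPM, 26 lay between 2000 and 5000 CPM, 51 between 1000 and 2000 CPM and 16 below 1000 CPM, with a median of 1572 CPM. The first 10 IDs alone took 6.17% to 7.74% of the gene reads of a library, ranks 11 to 50 took 7.80% to 9.73%, and ranks 51 to 100 took 5.01% to 5.998%. The next 100 IDs together held 6.02% to 6.60%.

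**Figure D2:**
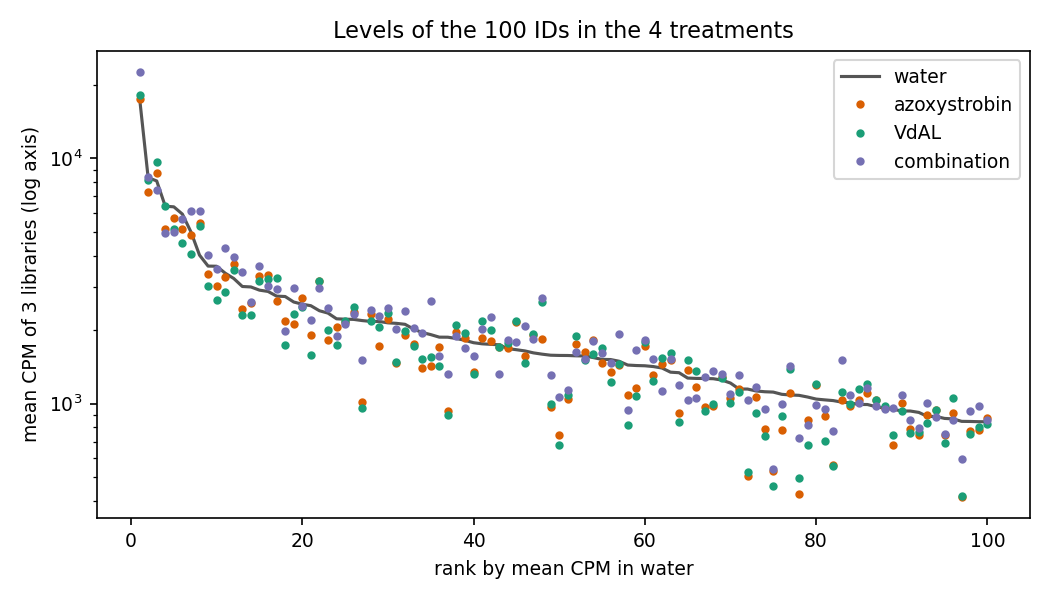
Mean CPM of 3 libraries (log axis) for the 100 IDs in order of their mean in water, drawn as a line for water and as dots for the treated groups. The first ID stands at 17652 CPM in water and the 100th at 844 CPM. Most dots follow the line, and a few IDs lie well below it in treated groups, among them ranks 27 and 37 in the single treatments.

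BGIOSGA025849 was the ID with the most reads in each of the 12 libraries. It stood at 17707, 17159 and 18089 CPM in water, 16452, 18440.3 and 17379 CPM with azoxystrobin, 19449.6, 16782 and 17964 CPM with VdAL and 21910.5, 24515 and 21132 CPM in the combination. All 3 combination libraries lay above the other 9 libraries, and this ID took 2.19%, 2.45% and 2.11% of the gene reads there against at most 1.94% elsewhere. The fitted log2 difference was 0.48 (SE 0.12, 95% interval 0.23 to 0.72) for the combination against azoxystrobin and 0.41 (SE 0.12, 95% interval 0.17 to 0.66) against VdAL. Neither passed the threshold after adjustment over all tested IDs in edgeR's quasi-likelihood test, with adjusted p = 0.151 and 0.15. Fitted differences use TMM factors (trimmed mean of M-values) to scale the libraries, so they differ slightly from ratios of the CPM values.

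For the IDs at ranks 2 to 4 the libraries of a treatment differed more from each other, on average, than for BGIOSGA025849. The SD over the mean of 3 libraries, averaged over the treated groups, was 14.1%, 11.5% and 21.1% against 6.99%. It was 5.57% at rank 5 and 5.43% at rank 8. BGIOSGA001812 stood at 9422, 8556 and 7081 CPM in water, 6674, 8705 and 6444 with azoxystrobin, 9805, 8272 and 6519 with VdAL and 7981, 8465 and 8819 in the combination, and the 4 groups overlapped. BGIOSGA002954 stood at 8486, 9159.8 and 6636 CPM in water, 9483, 9021 and 7763 with azoxystrobin, 11421, 8954 and 8517 with VdAL and 7869, 6753 and 7699 in the combination. For this ID the VdAL libraries all lay above the combination libraries, with a log2 difference of −0.28 (95% interval −0.60 to 0.03), the opposite sign to most of the 100 IDs. BGIOSGA000281 stood at 4867, 9132 and 5157 CPM in water, 4942, 5434 and 5066 with azoxystrobin, 9725, 4999 and 4529.9 with VdAL and 5011, 4256 and 5584 in the combination. Water replicate 2 and VdAL replicate 1 were high for it and the other 10 libraries lay between 4256 and 5584 CPM, so its group means of 6385 ± 2383 CPM in water and 6418 ± 2874 CPM in VdAL rest on 1 library each. The same libraries had the highest total counts of the series and the highest shares of reads that did not align uniquely, at 16.1% and 22.4%, and the part of either in this result was not tested.

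BGIOSGA002563 stood at 7779, 6061 and 5205 CPM in water, 5763, 5226 and 6093 with azoxystrobin, 5375, 5246 and 4808 with VdAL and 4902, 5217 and 4985 in the combination. The treated groups lay close together for it and water replicate 1 was the highest library. BGIOSGA026721 stood at 5962, 5604 and 6219 CPM in water, 4710.4, 5091 and 5625 with azoxystrobin, 4662, 4349.6 and 4556 with VdAL and 5171, 6314 and 5560.4 in the combination. On these unscaled values all VdAL libraries lay below all libraries of the other treatments. After scaling by the TMM factors, VdAL replicate 1 lay above azoxystrobin replicate 1. BGIOSGA018498 stood at 4914, 4364 and 5767 CPM in water, 4236, 5123 and 5200.5 with azoxystrobin, 4139, 4611 and 3429 with VdAL and 5639, 7239 and 5512 in the combination. The combination was above every single-treatment library for it, by a log2 difference of 0.45 (95% interval 0.11 to 0.78) against azoxystrobin and 0.69 (95% interval 0.36 to 1.03) against VdAL.

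BGIOSGA011520 was the one of the first 10 IDs that stood higher than water in every treated library. Its levels were 4167, 3593 and 4339 CPM in water, 5468, 5394 and 5481 with azoxystrobin, 4802, 5349.6 and 5818 with VdAL and 5926, 6541 and 5908 in the combination. The azoxystrobin libraries had an SD of 47.1 CPM, and the combination libraries lay above all single-treatment libraries. BGIOSGA025934 stood at 3610.4, 3446 and 3861 CPM in water, 3346, 3249.6 and 3540.4 with azoxystrobin, 3306, 2702 and 3046 with VdAL and 3579, 4521 and 3976 in the combination. BGIOSGA037257 stood at 3594, 3145 and 4163 CPM in water, 2862, 2879.9 and 3328 with azoxystrobin, 3146, 2293 and 2499 with VdAL and 2968, 3566 and 4063 in the combination. In BGIOSGA025934 the combination again did not overlap the single treatments, while in BGIOSGA037257 it did.

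**Figure D3:**
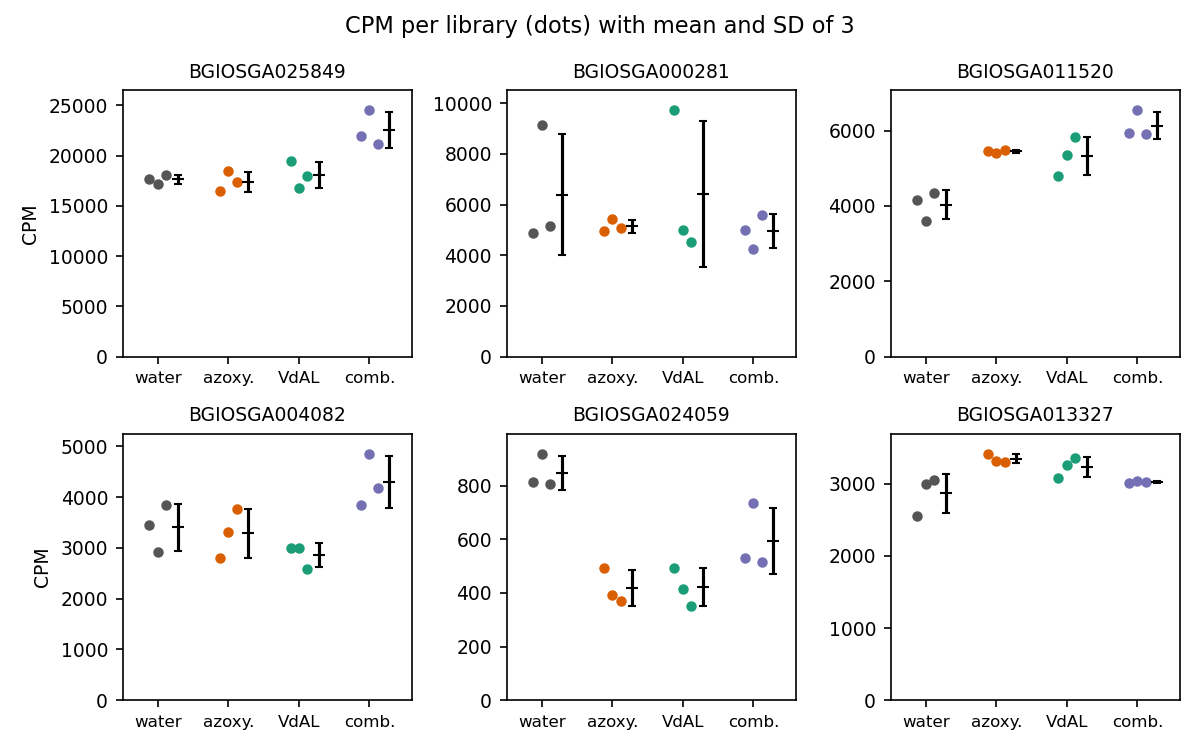
CPM in each library (dots) with the mean and SD of 3 libraries (bars) for 6 of the IDs, on axes that start at 0. BGIOSGA025849 and BGIOSGA004082 are highest in the combination, BGIOSGA000281 has a single high library in water and in VdAL, and BGIOSGA013327 lies between 2556 and 3416 CPM in all 12 libraries.

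The log2 differences among the 3 treated groups set no water library, by which the IDs were chosen, against another. Their intervals and p-values do rest on a spread estimated from all 12 libraries, water included. The combination stood above each single treatment for most of the most-read IDs, by a small amount. Against azoxystrobin the estimate was positive for 83 of the 100 IDs and the median log2 difference was 0.24, against a median of 0.0019 over all 21381 tested IDs. Against VdAL it was positive for 82 and the median was 0.28, against −0.0025 over all tested IDs. The next 100 IDs in water order had medians of 0.15 and 0.19 in the same comparisons. Without scaling factors the medians of the 100 IDs were 0.13 and 0.18, and those of all tested IDs moved to −0.10 and −0.10. Both comparisons share the combination libraries and are not independent of each other. Combination replicate 2 carried part of the difference, and without it the medians were 0.18 and 0.20. Without VdAL replicate 1 they were 0.24 and 0.35, and after adding the share of non-unique reads to the model 0.27 and 0.35. In RNA from whole leaves, a change in the number of cells of a type and a change in RNA per cell cannot be told apart.

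**Figure D4:**
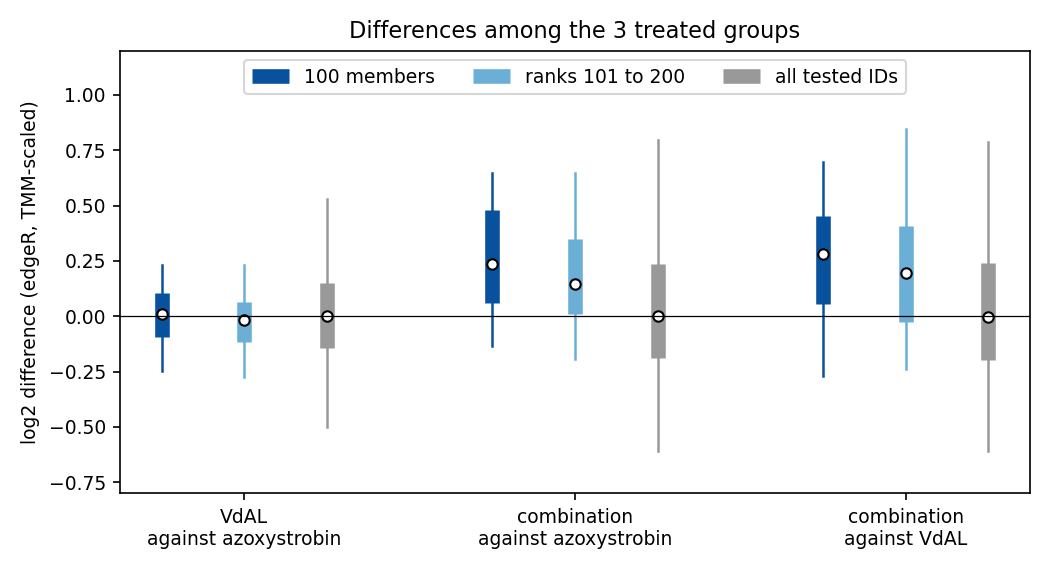
Log2 differences among the treated groups from edgeR for the 100 most-read IDs, for the next 100 IDs in water order and for all tested IDs. Circles are medians, thick bars span the 25th to 75th percentile and thin lines the 5th to 95th. The 100 IDs sit above 0 where the combination is compared, with medians of 0.24 and 0.28, and near 0 for VdAL against azoxystrobin.

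For 26 of the 100 IDs all 3 combination libraries lay above all 6 single-treatment libraries on TMM-scaled CPM, and over all tested IDs this share was 5.56%. These included 4 of the first 10 IDs, BGIOSGA025849, BGIOSGA018498, BGIOSGA011520 and BGIOSGA025934. Among the 26 IDs the log2 difference ranged from 0.16 to 1.14 against azoxystrobin and from 0.24 to 1.09 against VdAL. On CPM without scaling factors the count was 19, with 3.38% of all tested IDs. Without VdAL replicate 1 it was 40, with 8.00% of all tested IDs, and without combination replicate 2 it was 26, with 7.46%. Among the next 100 IDs the count was 17. The reverse order, with the combination below all single-treatment libraries, was found for 2 of the 100 IDs, against 3.72% of all tested IDs. They were BGIOSGA000953 and BGIOSGA026411, the latter named after its values were seen. On CPM without scaling factors the reverse order was found for 5, against 7.02% of all tested IDs, the others being BGIOSGA013327, BGIOSGA037478 and BGIOSGA026410. BGIOSGA026411 stood at 1507, 1384 and 1451 CPM with azoxystrobin, 1959, 1347 and 1298 with VdAL and 1139, 1102 and 1125 in the combination.

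In the edgeR fit of all 12 libraries no single ID of the 100 passed the threshold between treated groups. For the combination against azoxystrobin, edgeR's quasi-likelihood test called 0 of the 100, as it called 0% of all tested IDs, while 38 of the 100 had an unadjusted p under 0.05, against 12.04% of all tested IDs. DESeq2 called 4 of the 100, all higher in the combination, and 0.898% of all tested IDs. edgeR fitted to those 6 libraries called 11 and 0.856%. The smallest p was that of BGIOSGA035064, at 903, 1086 and 1128 CPM in azoxystrobin and 1469, 1720.2 and 1349 CPM in the combination. Its groups did not overlap, and the log2 difference was 0.65 (SE 0.15, 95% interval 0.33 to 0.97, edgeR adjusted p = 0.129). Over 20 alternatives its adjusted p ran from 0.000164 to 0.547 and it was called under 3 of them. On the lower side BGIOSGA000953 had the smallest p, at 1809.7, 1580.2 and 1715 CPM in azoxystrobin and 1343, 1225 and 1399 CPM in the combination. The groups did not overlap here either, and the log2 difference was −0.26 (SE 0.12, edgeR adjusted p = 0.415). The 95% interval lay within 2-fold in either direction for 88 of the 100 IDs and within 1.5-fold for 54, against 65.7% and 35.3% of all tested IDs.

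For the combination against VdAL, 0 of the 100 IDs were called, against 0.0187% of all tested IDs, and 51 had an unadjusted p under 0.05, against 12.8%. DESeq2 called 10 of the 100, all higher, and 1.41% of all tested IDs, and edgeR fitted to those 6 libraries called 6 and 1.67%. The edgeR count was 6 without VdAL replicate 1, where 0.271% of all tested IDs were called, and 4 without water replicate 2, where 0.669% were. BGIOSGA004082 had the smallest p, at 3004, 3003 and 2588 CPM with VdAL and 3847, 4855 and 4186 CPM in the combination. The 3 combination libraries all lay above the VdAL libraries, and the log2 difference was 0.68 (SE 0.15, 95% interval 0.37 to 0.995, edgeR adjusted p = 0.0802). Its adjusted p ran from 3.41e-05 to 0.457 over 20 alternatives, 4 of which called it, among them the fit without water replicate 2. Of the IDs lower in the combination, BGIOSGA037478 had the smallest p, at 1726, 1556 and 1232 CPM with VdAL and 1212, 882 and 1024 CPM in the combination (log2 −0.45, SE 0.15, edgeR adjusted p = 0.225). The interval lay within 2-fold for 88 of the 100 IDs and within 1.5-fold for 49, against 65.6% and 34.5% of all tested IDs.

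The single treatments lay closest together. Over the 100 IDs the median log2 difference of VdAL against azoxystrobin was 0.0093, with 53 IDs higher and 47 lower by estimate, and the median size of the difference was 0.10, against 0.15 over all tested IDs. edgeR's test called 0 of the 100, as it called 0% of all tested IDs, and DESeq2 called 0. An unadjusted p under 0.05 was found for 5 of the 100, which were BGIOSGA017254, BGIOSGA030566 and, named for this count after their values were seen, BGIOSGA025682, BGIOSGA029180 and BGIOSGA023247. Over all tested IDs the share was 3.36%. BGIOSGA030566 stood at 1788, 2100.3 and 1630.3 CPM in azoxystrobin and 3693, 1864 and 2269.6 CPM in VdAL. VdAL replicate 1 was the high library and the groups overlapped (log2 0.52, 95% interval 0.10 to 0.94), and without that library the difference was 0.15. BGIOSGA017254 stood at 1176, 1115 and 964 CPM in azoxystrobin and 933, 759 and 766 CPM in VdAL (log2 −0.39, 95% interval −0.66 to −0.12). These unscaled values did not overlap, but after scaling by the TMM factors VdAL replicate 1 lay above azoxystrobin replicate 3. On CPM without scaling factors all VdAL libraries lay below all azoxystrobin libraries for 7 of the 100 IDs and above them for 3. Over all tested IDs these shares were 4.57% and 3.95%. On TMM-scaled CPM the counts among the 100 IDs were 4 and 3, against 969 and 897 of all 21381 tested IDs. The 95% interval lay within 2-fold for 99 of the 100 IDs and within 1.5-fold for 83, against 70.9% and 42.7% of all tested IDs. For the other IDs these libraries leave room for a larger difference, and a lack of calls is no evidence of equal action.

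The libraries of a treatment also differed in how the 100 IDs moved as a block. Taking each ID's TMM-scaled log2 CPM minus its mean over the 12 libraries, the median over the 100 IDs was −0.15, −0.06 and −0.06 in the azoxystrobin libraries. In the VdAL libraries it was 0.008, −0.17 and −0.21. In the combination it was 0.04, 0.29 and 0.07. VdAL replicate 1 thus lay above the other VdAL libraries and above all azoxystrobin libraries, and combination replicate 2 lay above all other libraries, with 87 of the 100 IDs above their own mean. Without scaling factors the medians were −0.09, −0.01 and −0.02 with azoxystrobin, −0.0007, −0.10 and −0.14 with VdAL and 0.02, 0.18 and 0.05 in the combination. The order described holds on that scale too, with 72 of the 100 IDs above their own mean in combination replicate 2.

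**Figure D5:**
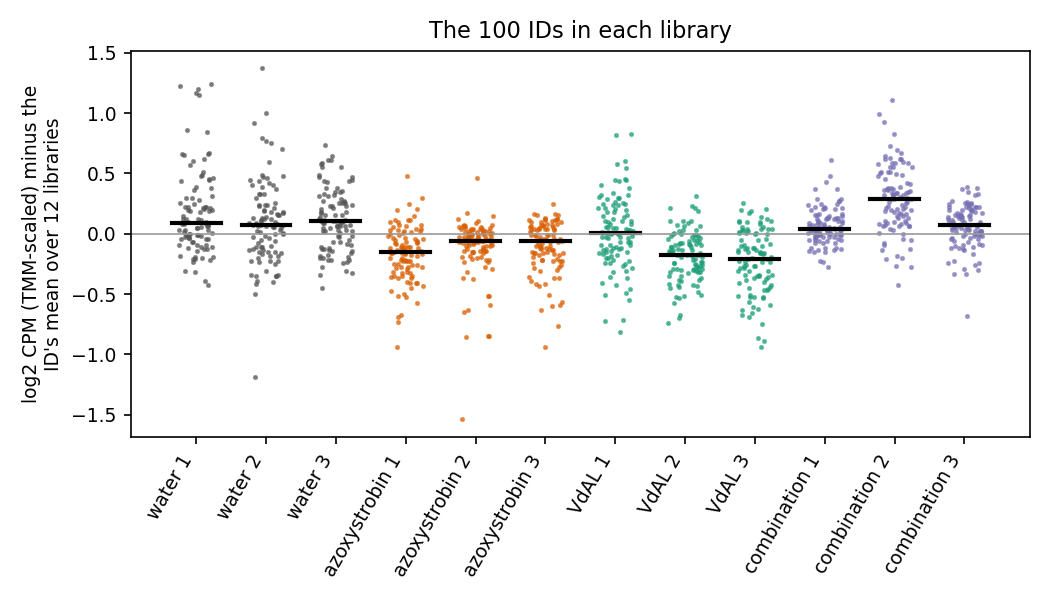
Log2 CPM (TMM-scaled) of each of the 100 IDs minus its mean over the 12 libraries, by library, with the median as a black bar. The medians run from −0.21 in VdAL replicate 3 to 0.29 in combination replicate 2, and VdAL replicate 1 lies above the other VdAL libraries.

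By the median SD over the mean of 3 libraries, the most-read IDs varied less between replicates than all tested IDs, and a few varied widely. In the treated groups the median coefficient of variation (SD over mean of 3 libraries, on CPM without scaling factors) of the 100 IDs was 8.81% with azoxystrobin, 12.1% with VdAL and 8.10% in the combination, against 16.4%, 16.6% and 15.5% over all tested IDs. The next 100 IDs had lower medians, of 8.05%, 10.16% and 7.41%. All tested IDs include IDs with few reads, and counting error was not separated from other spread. Between VdAL replicate 1 and VdAL replicates 2 and 3, the median absolute difference in TMM-scaled log2 CPM was 0.31 and 0.28 for the 100 IDs. Over all tested IDs it was 0.30 and 0.27. In the other pairs of libraries within a treated group it was lower for the 100 IDs. BGIOSGA013327 and BGIOSGA027353 had the narrowest spread, with mean coefficients of 2.24% and 3.10% over the treated groups, and 2.41% and 4.42% on TMM-scaled CPM. BGIOSGA013327 stood at 3416, 3316 and 3301 CPM with azoxystrobin, 3079, 3259 and 3362 with VdAL and 3010.0, 3036 and 3019.6 in the combination.

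BGIOSGA023704 and BGIOSGA013814 had the widest spread, with mean coefficients of 51.1% and 40.8%. BGIOSGA023704 stood at 1339, 1166 and 739 CPM in water, 759, 212 and 319.7 with azoxystrobin, 335, 723 and 435 with VdAL and 598, 1092 and 475 in the combination. BGIOSGA013814 stood at 1240.5, 1487 and 616 CPM in water, 849.9, 337 and 402 with azoxystrobin, 455, 597 and 337 with VdAL and 478, 794 and 358 in the combination. In both, azoxystrobin replicate 1, VdAL replicate 2 and combination replicate 2 were the highest library of their treatment and water replicate 3 the lowest of its own. They were also the 2 IDs of the 100 whose highest library was more than 4 times their lowest. Over the 12 libraries the highest value was under 1.5 times the lowest for 33 of the 100 IDs and over 2 times for 25, with a median ratio of 1.63.

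Most of the 100 IDs were also among the most-read IDs of the treated leaves. Lists of 100 made in the same way from each treated group shared 86 IDs with the water list for azoxystrobin, 86 for VdAL and 92 for the combination. In all 3 treated lists were 84 of the 100, and 69 were among the first 100 BGIOSGA IDs of each of the 12 libraries taken alone. The IDs at the edge lay close together. The last members, BGIOSGA034421 and BGIOSGA014213, had 844 ± 64.5 and 844 ± 89.3 CPM in water, and the first IDs outside, BGIOSGA014328 and BGIOSGA022914, had 816 ± 80.3 and 812 ± 124 CPM, all closer than the SD between the water libraries.

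The lowest rank of any of the 100 IDs in a treated group was that of BGIOSGA024059 with azoxystrobin. It ranked 97 in water, 247 with azoxystrobin, 242 with VdAL and 169 in the combination. It stood at 813, 919 and 808 CPM in water, 495, 391 and 368 with azoxystrobin, 495, 416 and 353 with VdAL and 529.7, 736 and 516 in the combination. The combination libraries lay between the water libraries and those of the single treatments, with no overlap on either side. BGIOSGA023704 went from rank 78 in water to 238 in azoxystrobin, and BGIOSGA013814, rank 75 in water, ranked 211 in VdAL and 191 in the combination. In the other direction BGIOSGA004313, rank 112 in water at 758 ± 22.0 CPM, ranked 59 in each treated group, at 1202 ± 128, 1315 ± 109 and 1395 ± 156 CPM in azoxystrobin, VdAL and the combination. BGIOSGA029381 went from 707 ± 62.5 CPM in water to 1173 ± 83.3 in azoxystrobin and 1389 ± 210.3 in VdAL, and BGIOSGA016012 from 734 ± 175 CPM in water to 1206 ± 146 in the combination.

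Comparisons with water use the values that chose the IDs. An ID that was high in the water libraries partly by their own variation tends to stand lower elsewhere, so the following is a description, and nothing is read from the counts. By estimate 81 of the 100 IDs were below water with azoxystrobin, 70 with VdAL and 43 in the combination, with median log2 differences of −0.19, −0.17 and 0.03. The 3 comparisons share the water libraries. edgeR's test gave 7 of the 100 IDs in azoxystrobin, all lower, where 2.66% of all tested IDs were called, 0.538% higher and 2.12% lower. It gave 18 in VdAL, all lower, where 3.55% were called, 0.702% higher and 2.84% lower. In the combination it gave 2, 1 higher and 1 lower, where 1.71% were called, 0.491% higher and 1.22% lower. Without scaling factors the splits were 1 higher and 6 lower with azoxystrobin, 2 and 13 in VdAL, and 3 and 1 in the combination, where 2.91%, 3.52% and 1.74% of all tested IDs were called. Among them BGIOSGA019112 stood at 2877, 1707 and 1961 CPM in water, 1006, 1092 and 952 with azoxystrobin, 918, 1242 and 721 with VdAL and 1339, 1882 and 1282 in the combination. Its single-treatment libraries all lay below its water libraries, and the combination overlapped with water. BGIOSGA017254 stood at 1353, 1435 and 1524 CPM in water and 1058, 905 and 857 in the combination, and BGIOSGA011520, described above, was the ID higher in the combination.

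These counts rested in part on single libraries, and the share of all tested IDs called, given after each count, moved too. The count for azoxystrobin was 3 (1.18%) with water replicate 1 left out, 4 (1.43%) with azoxystrobin replicate 2 left out, 1 (0.603%) with azoxystrobin replicate 3 left out and 13 (3.55%) with VdAL replicate 1 left out. For VdAL it was 7 (2.03%) with water replicate 1 left out, 10 (2.27%) with VdAL replicate 2 left out and 5 (0.692%) with VdAL replicate 3 left out. For the combination it was 0 (0.617%) with water replicate 2 left out, 5 (3.34%) with water replicate 3 left out, 4 (2.03%) with VdAL replicate 1 left out and 1 (0.514%) with combination replicate 3 left out. The interaction, which asks whether the effect of VdAL differed with and without azoxystrobin, also holds the water libraries. It was called for 29 of the 100 IDs, all positive, where 3.8% of all tested IDs were called, 3.36% positive and 0.44% negative. Its count ran from 9 (1.35%) with combination replicate 2 left out to 43 (5.97%) with VdAL replicate 1 left out, the share of all tested IDs again in brackets. It was 15 (2.71%) with water replicate 1 left out, 17 (2.63%) with water replicate 3 left out, 16 (2.69%) with azoxystrobin replicate 1 left out and 13 (2.03%) with azoxystrobin replicate 3 left out. It was also 15 (2.64%) with VdAL replicate 2 left out, 10 (1.46%) with VdAL replicate 3 left out and 19 (2.70%) with combination replicate 1 left out.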

How the data were processed

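For every library the authors deposited the unnormalized count of each gene ID, followed by 5 rows that tally reads outside the genes. TopHat2 2.1.0, HTSeq 0.6.1 and edgeR 3.16.3 are named, per the submitters' processing notes, without order or settings. Those notes name the pig build Sscrofa10.2, which the IDs do not bear out (0 start with ENSSSC), so no coordinates are given. No strand setting or annotation release was found.

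The members and lists were chosen with earlier results of these data known. CPM was the count divided by the sum of all gene rows, times 1000000. Those last rows, 42.2% to 49.6% of recorded reads outside any gene, 9.01% to 22.4% not aligned uniquely and 0.646% to 0.833% ambiguous, stayed out. Counts of all IDs kept by filterByExpr (minimum count 10, 21381 IDs) were fitted with edgeR 4.0.16 in R 4.3.3 by glmQLFit and glmQLFTest, with TMM factors, group means and all 12 libraries. P-values are two-sided, adjusted by Benjamini and Hochberg over all tested IDs, with a threshold of 0.05. SE is the log2 difference over the square root of F. Log2 CPM used a prior count of 2. The fit was tested on simulated data. The simulated differences were larger than the median differences given above, so sensitivity at that size was not tested. No 2 libraries of a group agreed within sampling noise (lowest chi-square per degree of freedom 4.16). Alternatives were other scalings, no filter, DESeq2 1.42.0, fewer libraries and a replicate block.

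IDs named in the text are the first 10 by mean CPM in water, those just inside and outside the edge of the list, per comparison at most 2 members each way by smallest p among those called (1 each way where none was called), per treated group the 2 members of lowest rank and the 2 non-members of highest rank, and the 2 members with the widest and the narrowest spread on unscaled CPM. Photosynthesis and other-tissue marker lists had 0 members that could be matched, because 0 of the 88438 IDs were found in the reference table of 39387 genes of the japonica assembly ASM3414082v1.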

Additional observations from a re-analysis of the deposited data

Results flagged for a closer look

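The interaction compares the difference made by VdAL with and without azoxystrobin. It counts the water libraries, by which these IDs were chosen, and a choice for high water values favours a positive sign, so the following values are a description and no finding is read from them. Of the IDs named above, 11 had an edgeR adjusted p under 0.05 for it, all with a positive estimate. In log2 units it was 2.09 for BGIOSGA023704, 1.95 for BGIOSGA019112 and 1.71 for BGIOSGA024059. It was 0.87 for BGIOSGA037257, 0.85 for BGIOSGA023247, 0.84 for BGIOSGA018498, 0.83 for BGIOSGA004082 and 0.79 for BGIOSGA017254. The other values were 0.78 for BGIOSGA029180, 0.73 for BGIOSGA026721 and 0.71 for BGIOSGA025934. Over all 100 IDs the count of 29 fell to 9 without combination replicate 2. BGIOSGA025849, the ID with the most reads, had an interaction of 0.53 (95% interval 0.18 to 0.88, edgeR adjusted p = 0.0843).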

How the results depend on the processing

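The number of the 100 IDs called depended on the filter and on single libraries. Without a filter edgeR called 1 for VdAL against azoxystrobin (BGIOSGA030566), 31 for the combination against azoxystrobin and 32 against VdAL, 26, 30 and 13 for azoxystrobin, VdAL and the combination against water, and 46 for the interaction. Of all IDs that fit called 0.148%, 2.24%, 2.58%, 3.79%, 3.94%, 2.87% and 4.80% in the same order. The cause was not tested. In what follows the share of all tested IDs called is in brackets. Fits to the libraries compared only gave 11 (0.856%) and 6 (1.67%) for the combination against azoxystrobin and VdAL. They gave 11 (2.1%) for VdAL against water. DESeq2 gave 4 (0.898%) for the combination against azoxystrobin and 10 (1.41%) against VdAL. Against water it gave 12 (4.75%) for azoxystrobin and 5 (3.39%) for the combination. Plain library sizes gave 4 (1.74%) for the combination against water and 13 (4.53%) for the interaction, and upper-quartile factors 18 (3.28%) for the interaction. Choosing the IDs over all 12 libraries gave 5 for the combination against water, where that fit called 1.71%. The non-unique share of reads was also added to the model, an alternative chosen after seeing the data. The counts were then 11 (3.76%) for azoxystrobin against water and 16 (2.52%) for the interaction. As a share of all recorded reads the 100 IDs held 8.35% in water, 7.75% with azoxystrobin, 7.42% with VdAL and 8.79% in the combination, a larger denominator by construction.

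Leaving out 1 library at a time gave 0 calls throughout for VdAL and for the combination against azoxystrobin, 0 to 6 for the combination against VdAL, 1 to 13, 5 to 23 and 0 to 5 for azoxystrobin, VdAL and the combination against water, and 9 to 43 for the interaction. In the same order, the shares of all tested IDs called reached 0%, 0.196%, 0.669%, 3.55%, 4.17%, 3.34% and 5.97% at most. The count of IDs with the combination above all single-treatment libraries ran from 26 to 40, chosen after seeing the data. Over all tested IDs that share ran from 5.97% to 9.81%. The list kept 94 to 99 of its 100 IDs without 1 water library. The median log2 difference of the combination stayed above 0 under all 17 alternatives, from 0.13 to 0.28 against azoxystrobin and from 0.18 to 0.35 against VdAL.

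Replicate numbers are shared between treatments, and whether they pair the libraries was not settled. Over all tested IDs, deviations of same-numbered libraries from their group means correlated above 0.1 in 1 of 18 pairs (−0.20 to 0.10). By these correlations 3 of 12 libraries were closest to their own number. Over the 100 IDs alone the same correlations ran from −0.52 to 0.59, were above 0.1 in 8 of 18 pairs and were positive in all 6 pairs of replicate 3. With the replicate block the interaction was called for 17 of the 100 IDs, where 2.90% of all tested IDs were called. Against water the counts were 7 (2.31% of all tested IDs) for azoxystrobin, 14 (3.06%) for VdAL and 2 (1.52%) for the combination. Among the treated groups 0, 0 and 0 of the 100 IDs were called, and 0% of all tested IDs each time.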

Other observations

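The reads of these leaves were spread over many IDs. Between 938 and 1263 IDs were needed to reach 50% of the gene reads of a library. The number was 1263, 1185 and 1190 in azoxystrobin, 1087, 1250 and 1250 in VdAL and 1081, 938 and 1076 in the combination, so it was higher in every azoxystrobin library than in every combination library. IDs starting with EPlOING took 1.18% to 1.39% of the gene reads, and 0 of them reached the level of the 100th most-read ID in water, the highest standing at 744 CPM.

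Of the 11 IDs that stood more than 1.5 times above both other VdAL libraries in VdAL replicate 1, water replicate 2 was the highest water library in 6 and more than 1.5 times above both other water libraries in 1, which was BGIOSGA000281.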
